A study of Homo sapiens with 9 samples.

Results

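The 10 genes described here encode the transcription factor ATF4, the factors that act beside or below it (DDIT3, ATF5, CEBPB and NUPR1) and its stress targets TRIB3, CHAC1, PPP1R15A, SESN2 and DDIT4. They were taken by name from the 58735 genes of the deposited tables, where each had 1 row. They were chosen by FPKM measured in 1 pair of libraries, wild type 1 and control 1, so their differences between those libraries are given below as a description, with no test. RNA was sequenced from PaTu 8988t, an established human pancreatic adenocarcinoma line, as 9 libraries of 3 groups. Cells of the wild type group had been exposed to extracellular matrix with wild-type CPXM2, those of the R213A group to matrix with CPXM2 carrying the R213A change, and those of the control group to a control matrix, with 3 libraries in each group. CPXM2 is a secreted protein of the carboxypeptidase family that carries a discoidin domain. All 9 libraries came from the same line, so they show 1 tumour cell background, and the labels give neither the exposure time nor whether replicates were separate cultures. The p-values below therefore speak only of how far these libraries scatter, and that scatter may be technical.

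ATF4 is the main output of the integrated stress response. In that pathway, kinases that sense unfolded protein, missing amino acids, double-stranded RNA or low haem phosphorylate the initiation factor eIF2α, which lowers protein synthesis in general but lets ribosomes reach the ATF4 reading frame. ATF4 then pairs with C/EBP family proteins and switches on genes of amino acid supply, redox balance and growth arrest, and, under lasting stress, DDIT3 (the factor CHOP) and its targets. Because ATF4 is controlled largely at translation, its mRNA level does not give its protein level.

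ATF4 and its C/EBP partners bind a composite element with the core letters TGATGNAA, where N is any base. That core, read on both strands, was searched in RefSeq promoter windows of GRCh38.p14 that run from 250 bases before a transcript start to 50 after it. It was found in 3.62% of all 35116 windows and in 1 of the 16 windows of the 9 genes that matched, which was the CHAC1 window. The narrower word TGATGCAA, which TGATGNAA includes, was in 0.866% of all windows, and the related word TGACGCAA was in 0.513% of all windows and in none of the 16. NUPR1 is named only. The CHAC1 window at chr15:40953221-40953520 on the plus strand and the TRIB3 window at chr20:381045-381344 on the plus strand are shown because these genes head the arm described below. Capitals mark the match, which lies on the minus strand of the CHAC1 window and starts 209 bases before the transcript start. None of the 3 TRIB3 windows had a match, which says only that these letters were not in them.
CHAC1 promoter: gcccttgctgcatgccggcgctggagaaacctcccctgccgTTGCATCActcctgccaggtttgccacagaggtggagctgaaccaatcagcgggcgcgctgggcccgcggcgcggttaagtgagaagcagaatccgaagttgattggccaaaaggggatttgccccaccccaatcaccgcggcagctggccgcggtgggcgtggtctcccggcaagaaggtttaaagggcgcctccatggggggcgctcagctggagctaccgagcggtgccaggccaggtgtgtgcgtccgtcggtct
TRIB3 promoter: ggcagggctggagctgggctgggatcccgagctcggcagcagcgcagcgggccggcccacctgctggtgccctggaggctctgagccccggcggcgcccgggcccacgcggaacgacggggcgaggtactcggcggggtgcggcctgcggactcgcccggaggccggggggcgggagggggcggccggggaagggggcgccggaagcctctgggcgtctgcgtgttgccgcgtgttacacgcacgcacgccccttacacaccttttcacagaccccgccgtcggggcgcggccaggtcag

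The values are FPKM, which divide the reads of a gene by its length and by the size of its library, deposited as separate tables of 4 and 5 libraries. The 4-library table holds wild type 1, R213A 1 and 3 and control 1, and the 5-library table holds wild type 2 and 3, R213A 2 and control 2 and 3. Whole reads recovered from the FPKM gave library totals of 15951927 to 18312806, with 20059 to 21401 genes detected and 1.81% to 2.38% of reads on mitochondrial transcripts. Of 8 epithelial carcinoma markers, 4 averaged at least 1 FPKM, with KRT18 at 211 to 647 FPKM and KRT8 at 104 to 300 FPKM, while KRT7, KRT19, CDH1 and CLDN4 were all below 0.5 FPKM in every library. None of the markers of fibroblasts, immune cells, endothelium or acinar and islet cells averaged 1 FPKM, and each list summed to at most 1.57 FPKM in any library. In bulk RNA, fewer cells of a kind and less RNA per cell cannot be told apart.

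Over the 9 libraries, wild type 1 was the highest and control 1 the lowest in 9 of the 10 genes. This held for 3.21% of all genes tested. The 9 include NUPR1, which was below the filter of a mean of 1 FPKM and so is not among the genes tested. The count follows in part from the choice of the genes, and nothing is read from it.

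**Figure D1:**
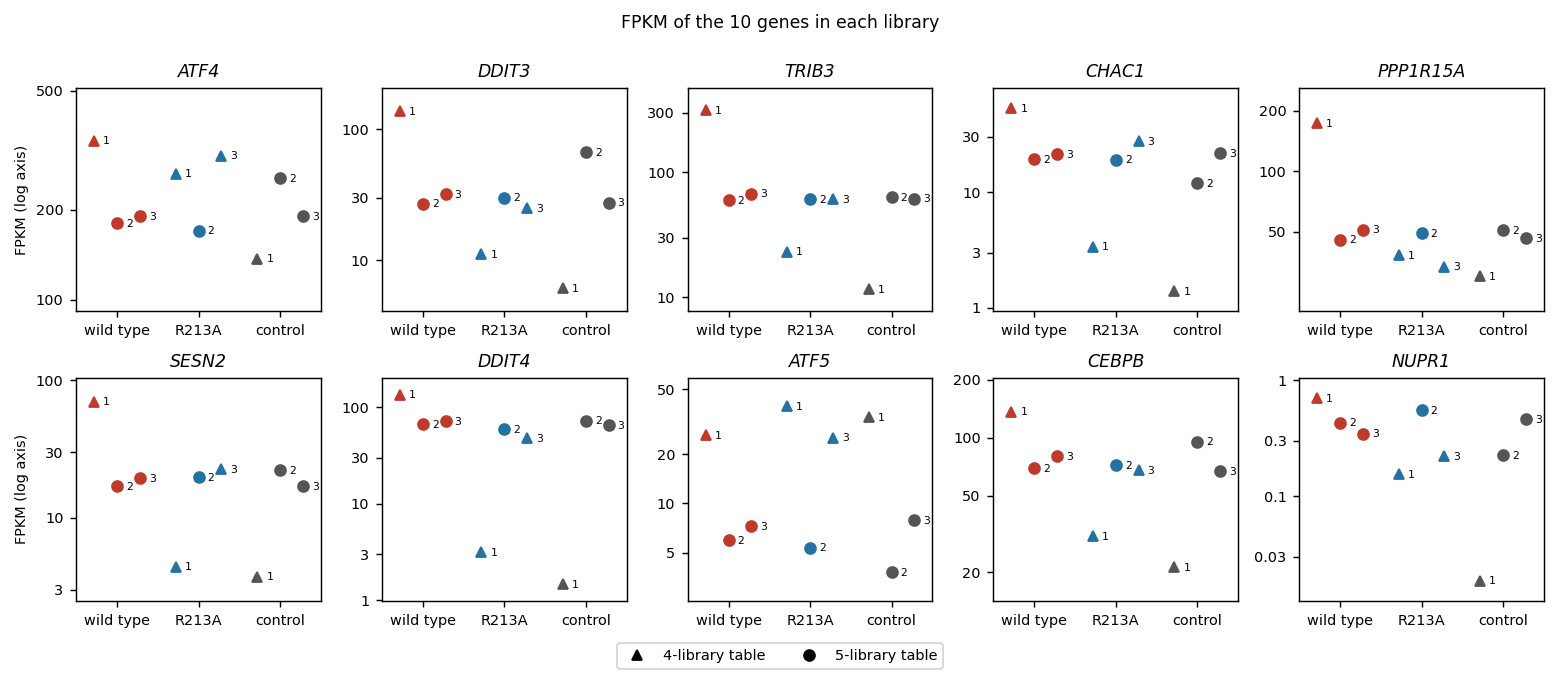
FPKM on a log axis (each panel with its own range) of the 10 genes in each library, with the groups side by side, the replicate number beside each point, triangles for the 4-library table and circles for the 5-library table. In 9 of the 10 genes wild type 1 was the highest and control 1 the lowest of the 9 libraries, and ATF5 was instead higher in all 4 triangles than in all circles.

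Among the transcription factors, ATF4 (chr22:39519695-39522685) had the highest average level of the 10 genes. It stood at 340, 180 and 190 FPKM in wild type 1, 2 and 3, at 264, 170 and 303 FPKM in R213A 1, 2 and 3, and at 137, 254 and 190 FPKM in control 1, 2 and 3. The 3 groups overlapped, and control 1 was the lowest library and wild type 1 the highest. DDIT3 (chr12:57516588-57521737, minus strand) encodes CHOP, the factor tied to cell death under lasting stress. It stood at 138, 27.0 and 31.8 FPKM in wild type libraries, at 11.1, 29.9 and 25.0 FPKM in R213A libraries, and at 6.08, 67.0 and 27.5 FPKM in controls. Wild type 1 was far above all others, control 2 came next, and 5 libraries lay between 25.0 and 31.8 FPKM. The DDIT3 gene model shares 982 bases with MARS1 (36.8 to 86.9 FPKM) and 1028 bases with MBD6 (10.4 to 13.3 FPKM), both on the opposite strand. It also shares 2769 bases with ENSG00000285133 on its own strand, which is listed at 0 in every library. The strand setting of the counting is not given, so the DDIT3 values are uncertain where these genes overlap.

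CEBPB (chr20:50190734-50192689), a C/EBP factor that can pair with ATF4, stood at 137, 69.7 and 80.1 FPKM in wild type libraries, at 30.9, 72.0 and 67.7 FPKM in R213A libraries, and at 21.3, 95.2 and 67.2 FPKM in controls. Its low libraries were R213A 1 and control 1. ATF5 (chr19:49928702-49933935), which is known for the mitochondrial stress response, went another way. It stood at 26.1, 5.96 and 7.28 FPKM in wild type libraries, at 39.2, 5.35 and 25.3 FPKM in R213A libraries, and at 33.6, 3.79 and 7.86 FPKM in controls. Its 4 values in the 4-library table all exceeded its 5 values in the other table, which held for 23.7% of all genes tested, and within the 4-library table wild type 1 was not the highest. The ATF5 model shares 1062 bases with NUP62 on the opposite strand. NUPR1 (chr16:28532708-28539174, minus strand), a small stress-induced chromatin protein, was barely detected, at 0.702, 0.432 and 0.345 FPKM in wild type libraries, 0.156, 0.555 and 0.220 FPKM in R213A libraries and 0.0188, 0.225 and 0.462 FPKM in controls. These values rest on 2 to 77 reads, and NUPR1 was the only one of the 10 genes below the filter of a mean of 1 FPKM, so 9 of the 10 passed it.

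TRIB3 (chr20:362835-397559) encodes a pseudokinase that binds ATF4 and CHOP and restrains AKT. It stood at 316, 60.1 and 67.8 FPKM in wild type 1, 2 and 3, at 23.2, 61.2 and 61.2 FPKM in R213A 1, 2 and 3, and at 11.6, 63.6 and 61.6 FPKM in control 1, 2 and 3. The 5 libraries of the 5-library table spanned only 1.13-fold, against 27.2-fold in the 4-library table. CHAC1 (chr15:40952962-40956519) encodes an enzyme that cleaves glutathione, the main cellular antioxidant. It stood at 52.8, 19.3 and 21.3 FPKM in wild type libraries, at 3.37, 19.0 and 27.7 FPKM in R213A libraries, and at 1.40, 11.9 and 21.7 FPKM in controls. R213A 1 and control 1 were low for both genes, and control 2 was low for CHAC1 but not for TRIB3.

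PPP1R15A (chr19:48872392-48876057), known as GADD34, directs a phosphatase to eIF2α and so closes the loop. It stood at 174, 45.6 and 51.2 FPKM in wild type libraries, at 38.1, 49.1 and 33.4 FPKM in R213A libraries, and at 30.0, 50.9 and 46.5 FPKM in controls. Wild type 1 alone stood apart, and the other 8 libraries lay within 30.0 to 51.2 FPKM. SESN2 (chr1:28259527-28282491) and DDIT4 (chr10:72273920-72276036) both encode brakes on the growth kinase complex mTORC1. SESN2 stood at 69.9, 16.9 and 19.3 FPKM in wild type libraries, at 4.42, 19.8 and 22.6 FPKM in R213A libraries, and at 3.72, 22.3 and 16.9 FPKM in controls. DDIT4 stood at 135, 66.8 and 71.4 FPKM in wild type libraries, at 3.15, 59.2 and 47.6 FPKM in R213A libraries, and at 1.48, 72.8 and 65.0 FPKM in controls. For both, R213A 1 and control 1 were far below the other 7 libraries, which for DDIT4 lay between 47.6 and 135 FPKM.

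Wild type 1 and control 1 are the libraries behind the choice of the genes. Between them, 8 of the 9 genes above the filter were at least 1 higher in wild type 1 on the log2(FPKM + 1) scale, where 7.79% of the 11193 genes tested were, and nothing is read from this count because it follows from the choice. DDIT4 differed by 5.78, the largest of all genes tested, followed among the 10 by TRIB3 at 4.65, CHAC1 at 4.49, DDIT3 at 4.29 and SESN2 at 3.91. As a ratio of FPKM, DDIT4 was 91.3-fold higher (95% counting interval 70.4 to 121), CHAC1 37.7-fold (28.8 to 50.4) and TRIB3 27.2-fold (25.3 to 29.3), where the intervals cover counting error only. CEBPB was 6.40-fold, PPP1R15A 5.78-fold and ATF4 2.48-fold higher, and ATF5 differed by -0.35 on the log2 scale. NUPR1 had 77 reads in wild type 1 and 2 in control 1, a ratio of 37.3 with a counting interval of 9.99 to 314.

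R213A 1 and 3 of the same table are not the pair behind the choice. The genes were still chosen with earlier results of these data known, so the counts here are a description. In several of these genes the R213A libraries did not resemble each other. R213A 3 exceeded R213A 1 by at least 1 on the log2 scale in 6 of the 9 genes, where 1.13% of all genes tested did, and the median difference was 1.11, against 0.02 over all genes. DDIT4 was 15.1-fold higher in R213A 3 (counting interval 12.2 to 18.9), and its difference on the log2 scale, 3.55, was the largest of all genes tested. CHAC1 was 8.22-fold higher (6.65 to 10.3), with a log2 difference of 2.72 that ranked 4th. SESN2 was 5.11-fold, TRIB3 2.64-fold, DDIT3 2.26-fold and CEBPB 2.19-fold higher in R213A 3. ATF4 differed by 0.20 on the log2 scale, PPP1R15A by -0.18 and ATF5 by -0.61, and the direction of PPP1R15A turned when libraries were scaled to their read totals (0.06) or to equal quantiles (0.08). ATF4 differed by 0.77 with quantile scaling and by 0.45 with scaling to read totals, and ATF5 by -0.29 and -0.37. Scaling to read totals moved the median of all genes to 0.21 here. With 1 library on each side, this difference between replicates of the same group has no test.

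**Figure D2:**
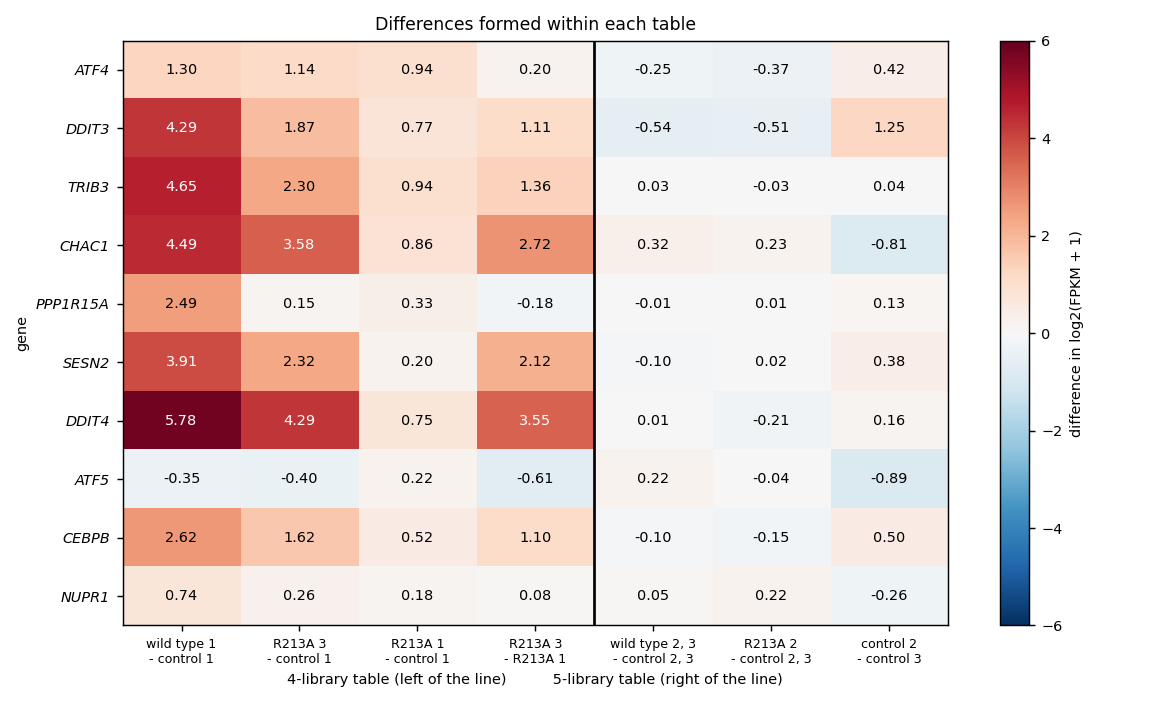
Differences in log2(FPKM + 1) for the 10 genes (rows), formed within the 4-library table (left of the line) and within the 5-library table (right of the line), coloured from lower (blue) to higher (red). DDIT4, CHAC1, TRIB3 and SESN2 are far above 0 for wild type 1 and R213A 3 and under 1 for R213A 1, all against control 1 at the deposited scaling, and right of the line only DDIT3 in control 2 against control 3 passes 1.

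Against control 1, which these differences share with the pair behind the choice, R213A 3 was at least 1 higher in 7 of the 9 genes, where 2% of all genes tested were. DDIT4 was 32.2-fold, CHAC1 19.8-fold, SESN2 6.07-fold, TRIB3 5.27-fold and DDIT3 4.11-fold higher in R213A 3 than in control 1. R213A 1 was at least 1 higher than control 1 in none of the 9 at the deposited scaling, where 12.8% of all genes tested were, and its largest ratios were 2.41-fold for CHAC1 (counting interval 1.70 to 3.43) and 2.13-fold for DDIT4 (1.51 to 3.03). SESN2 was 1.19-fold higher in R213A 1 than in control 1, with a counting interval of 0.981 to 1.44. The deposited scaling put all 9 genes higher in R213A 1 than in control 1, as it did 47.5% of all genes tested, but PPP1R15A and ATF5 turned lower with quantile scaling and these and SESN2 turned lower with scaling to read totals, which moved the median of all genes to -0.32. The level of 1 was just passed by CHAC1 with quantile scaling, at 1.08, and by ATF4 and TRIB3 with median-of-ratios scaling, both at 1.00, while ATF4 was at 0.06 with quantile scaling. In 8 of the 10 genes the 4 libraries ran in 1 order, wild type 1 highest, then R213A 3, R213A 1 and control 1. Of all genes tested, 5.15% did, and the exceptions among the 10 were PPP1R15A and ATF5. The 8 include NUPR1, which was below the filter and so is not among the genes tested. Its order rests on 77, 23, 12 and 2 reads. The ends of that order are the pair by which the genes were chosen, so nothing is read from the count. Set against both R213A libraries of its table, wild type 1 was at least 1 higher in 7 of the 9 genes (2.44% of all genes tested), from 1.55 for CEBPB to 3.26 for DDIT4, while ATF4 differed by 0.27 and ATF5 by -0.26. Wild type 1 is in the pair behind the choice, so nothing is read from this count either.

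In the 5-library table, which holds none of the libraries behind the choice, the genes differed in how much they varied. Over its 5 libraries PPP1R15A spanned 1.12-fold, TRIB3 1.13-fold, DDIT4 1.23-fold, SESN2 1.32-fold and CEBPB 1.42-fold, and ATF4 ran from 170 to 254 FPKM. CHAC1 spanned 1.82-fold, ATF5 2.07-fold, NUPR1 2.46-fold and DDIT3 2.48-fold, and ATF5 spanned more there than in the 4-library table (1.55-fold). Recovered reads, over genes with at least 10 in a pair of libraries, set control 2 apart from the other 4 libraries of its table. Chi-square per degree of freedom was 60.0 to 66.2 for control 2 against each of them. Among those 4 libraries it was 2.56 to 5.07. Control 2 also differed from control 3 in several of the 10 genes. DDIT3 was 2.43-fold higher in control 2 than in control 3 (counting interval 2.22 to 2.68), and it was the only one of the 9 genes to differ by 1 or more upward on the log2 scale, where 1.82% of all genes tested did. CEBPB was 1.42-fold and ATF4 1.34-fold higher in control 2, and CHAC1 and ATF5 were lower there, at 0.549 and 0.482 times their level in control 3. TRIB3, a known target of DDIT3, differed by 0.04 on the log2 scale between them, and that sign turned with quantile scaling (-0.12) and with scaling to read totals (-0.14).

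The effect of wild-type CPXM2 matrix against control matrix was tested in this table with limma on log2(FPKM + 1), fitted to all 11193 genes with Benjamini-Hochberg adjustment, and no gene passed an adjusted p of 0.05 (0%), while 109 genes (0.974%) had an unadjusted p under 0.05. TRIB3 differed by 0.03 ± 0.12 (SE, adjusted p = 0.955, 95% interval -0.29 to 0.35) and CHAC1 by 0.32 ± 0.28 (SE, adjusted p = 0.869, interval -0.42 to 1.05). ATF4 differed by -0.25 ± 0.19 (SE, adjusted p = 0.869) and DDIT3 by -0.54 ± 0.42 (SE, adjusted p = 0.869), and the other 5 genes by between -0.10 and 0.22. Both signs depended on control 2: against control 3 alone DDIT3 differed by 0.09 and CHAC1 by -0.09. For the R213A matrix, the single R213A library of this table was assumed to vary like the others, and no gene was called (0%), with 86 genes (0.768%) at an unadjusted p under 0.05. Differences of the 9 genes lay between -0.51 for DDIT3 and 0.23 for CHAC1, with adjusted p values of 0.987 to 0.996. This fit has 2 residual degrees of freedom. Without control 3, 1 is left, so that every spread comes from wild type 2 and 3 alone and a group of 1 library is assumed to vary like them. On that assumption the calls for wild type against control took in 4570 genes (40.8%) and 5 of these 9, namely DDIT3 at -1.16 (adjusted p = 0.000963), CHAC1 at 0.72 (adjusted p = 0.00240), ATF4 at -0.46, ATF5 at 0.66 and CEBPB at -0.34, all measured against control 2 alone. For R213A 2 against control 2, a pair of single libraries, 31.5% of all genes were called, and so were DDIT3 at -1.14, CHAC1 at 0.64, ATF4 at -0.58, CEBPB at -0.40 and DDIT4 at -0.29.

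Over all 9 libraries, with the deposited table as a term beside the group, limma called no gene for R213A against control (0% of 11193, with 341, or 3.05%, at an unadjusted p under 0.05). The 9 genes gave no call either. This fit uses control 1, and wild type 1 through the table term and the spread. They are the pair behind the choice, so these estimates and p values are not free of it. CHAC1 had the largest difference, 0.87 ± 0.87 (SE, adjusted p = 0.716), with a 95% interval of -1.08 to 2.83 that spans both directions. DDIT4 differed by 0.66 ± 1.16 (SE, adjusted p = 0.831), TRIB3 by 0.37 ± 0.81 (SE, adjusted p = 0.867), ATF4 by 0.24 ± 0.35 (SE, adjusted p = 0.800) and DDIT3 by -0.03 ± 0.85 (SE, adjusted p = 0.990). The direction turned without control 1. CHAC1 then differed by -0.50, DDIT4 by -1.23, TRIB3 by -1.02, ATF4 by -0.42, SESN2 by -0.90 and CEBPB by -0.65. In that fit the 4-library table holds wild type 1 as the only library outside the R213A group. Wild type 1 is in the pair behind the choice, so nothing is read from these values. Without control 1 and wild type 1 together, CHAC1 differed by 0.23 and DDIT4 by -0.21. Only R213A libraries are then left in the 4-library table, so these are the estimates of the 5-library table and no separate result. For wild type against control no gene was called (0%, and 503 or 4.49% at an unadjusted p under 0.05), and the 9 genes, given here with no p, differed by 1.93 for DDIT4, 1.71 for CHAC1, 1.57 for TRIB3, 1.24 for SESN2, 1.07 for DDIT3, 0.82 for PPP1R15A, 0.81 for CEBPB, 0.27 for ATF4 and 0.03 for ATF5. Without wild type 1 these became 0.46 for DDIT4, 0.65 for CHAC1, 0.30 for TRIB3 and -0.23 for DDIT3. Without control 1 they became 0.51 for DDIT4, 0.68 for CHAC1, 0.52 for TRIB3 and -0.04 for DDIT3. For wild type against R213A no gene was called either (0%, and 117 or 1.05% at an unadjusted p under 0.05), and the 9 genes differed by 0.03 for ATF4 and ATF5 up to 1.27 for DDIT4. Without wild type 1, DDIT4 differed by -0.69 and CHAC1 by -0.58 in that comparison.

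**Figure D3:**
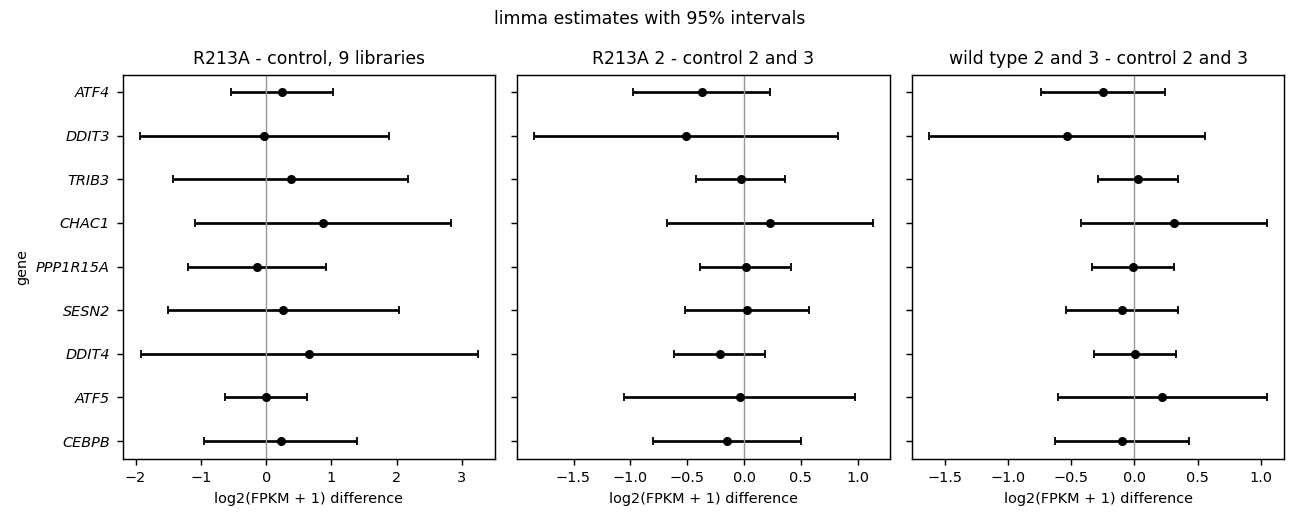
limma estimates (points) with 95% intervals (bars) of the log2(FPKM + 1) difference for the 9 genes above the filter, for R213A minus control over 9 libraries and, in the 5-library table, for R213A 2 and for wild type 2 and 3, each minus control 2 and 3 (each panel with its own axis range). Every interval includes 0, and that of DDIT4 over 9 libraries runs from -1.93 to 3.25. The 9-library panel includes wild type 1 and control 1, the pair behind the choice.

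Lists of other pathway genes give the surroundings of these 10 in the 4-library table, and none of their genes was called in any of the 5 fits. The lists were drawn up with earlier results of these data known. Nothing is read from their counts between wild type 1 and control 1, nor from those that involve R213A 1 or 3. Among genes that sense stress or act on eIF2α, upstream of ATF4, 10 of 10 were lower in wild type 1 than in control 1, with a median of -0.44, against -0.07 over all genes tested, of which 46% were higher. They were also lower in 9 of 10 cases in R213A 3 (median -0.30) and in 9 of 10 in R213A 1 (median -0.39), each against control 1. GCN1, which activates the amino acid sensor GCN2, stood at 20.9 FPKM in wild type 1 and 39.0 FPKM in control 1. The other phosphatase adaptor for eIF2α, PPP1R15B, stood at 8.94 FPKM in wild type 1 and 14.0 FPKM in control 1, opposite to PPP1R15A. These sensors act through their activity, which mRNA levels do not show.

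Of 21 amino acid synthesis and transport targets of ATF4, 19 passed the filter, and 15 of these were higher in wild type 1 than in control 1 (median 1.01) and 15 in R213A 3 than in control 1 (median 0.99), where 46% and 47.2% of all genes tested were. In R213A 1, 8 were higher than in control 1 (median -0.06), where 47.5% of all genes tested were. All 19 were higher in R213A 3 than in R213A 1 (median 0.69), where 51.9% of all genes tested were. So were all 12 aminoacyl-tRNA synthetases (median 0.68). This is 1 library against 1 with no test, and nothing is read from these counts. PHGDH, the first enzyme of serine synthesis, stood at 48.7 FPKM in wild type 1, at 45.2 and 67.8 FPKM in R213A 1 and 3 and at 15.7 FPKM in control 1. The tryptophan-tRNA synthetase WARS1 stood at 85.5 FPKM in wild type 1, at 21.4 and 40.7 FPKM in R213A 1 and 3 and at 16.6 FPKM in control 1. Among 19 tested of 21 other ATF4 and CHOP targets, 18 were higher in wild type 1 than in control 1 (median 1.46). Against control 1, 15 were higher in R213A 3 (median 0.62) and 7 in R213A 1 (median -0.06). The shares of all genes tested that were higher were 46%, 47.2% and 47.5%. The stress cytokine GDF15 stood at 56.4 FPKM in wild type 1, at 1.66 and 2.79 FPKM in R213A 1 and 3 and at 0.869 FPKM in control 1, and the cell cycle inhibitor CDKN1A stood at 75.7 FPKM in wild type 1, at 11.0 and 19.1 FPKM in R213A 1 and 3 and at 6.64 FPKM in control 1. EIF4EBP1, a translation repressor that mTORC1 inactivates, differed in that it was also high in R213A 1, at 779 FPKM in wild type 1, 637 and 621 FPKM in R213A 1 and 3 and 196 FPKM in control 1.

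The chaperone genes of the IRE1 and ATF6 arms are the other outputs of unfolded protein in the endoplasmic reticulum. In wild type 1, 15 of 16 were higher than in control 1 (median 0.86), where 46% of all genes tested were. For R213A 3 against control 1, 7 of 16 were higher (median -0.03), near the 47.2% and the median of -0.03 of all genes tested. For R213A 1 against control 1, 5 of 16 were higher and 11 lower (median -0.18), where 47.5% of all genes tested were higher. HSPA5, the main chaperone of that compartment, stood at 894 FPKM in wild type 1, at 194 and 233 FPKM in R213A 1 and 3 and at 173 FPKM in control 1. Unlike HSPA5, SDF2L1 and CRELD2 were also high in R213A 1. SDF2L1 stood at 44.2 FPKM in wild type 1, at 60.3 and 23.2 FPKM in R213A 1 and 3 and at 18.9 FPKM in control 1. CRELD2 stood at 10.0 FPKM in wild type 1, at 10.2 and 4.93 FPKM in R213A 1 and 3 and at 4.27 FPKM in control 1. No test of a difference between these lists was made.

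**Figure D4:**
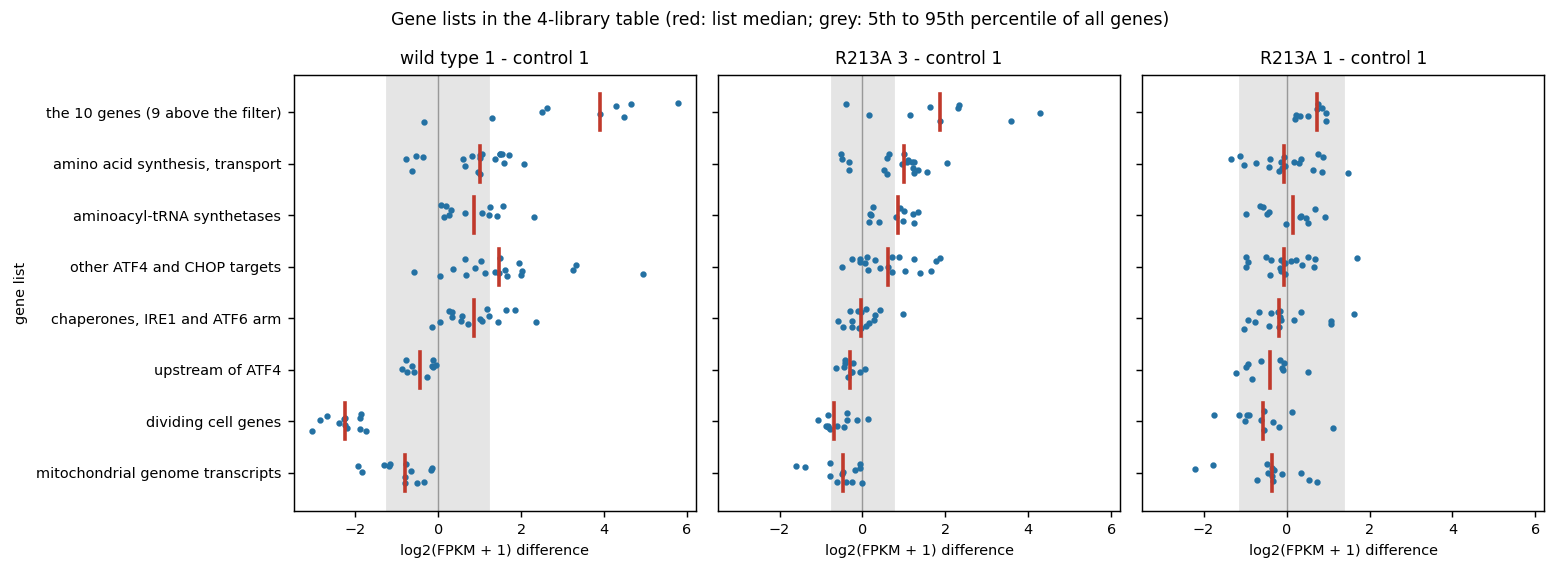
Difference in log2(FPKM + 1) from control 1 for each tested gene (points) of 8 gene lists in wild type 1, R213A 3 and R213A 1, with the list median in red and the range from the 5th to the 95th percentile of all genes tested in grey. In wild type 1 the median of the stress genes above the filter lies furthest right and that of the dividing cell genes furthest left. In R213A 1 the list medians lie within 1 of 0.

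Genes of dividing cells and mitochondrial transcripts also stood apart between wild type 1 and control 1, and nothing is read from those counts either. All 12 dividing cell genes were lower in wild type 1 than in control 1 (median -2.25), as were 11 of 12 in R213A 3 (median -0.69) and 10 of 12 in R213A 1 (median -0.58), where 46%, 47.2% and 47.5% of all genes tested were higher. TOP2A, which untangles DNA at mitosis, stood at 6.52 FPKM in wild type 1, at 17.5 and 28.7 FPKM in R213A 1 and 3 and at 60.9 FPKM in control 1. All 13 mitochondrial transcripts were lower in wild type 1 than in control 1 (median -0.80). All 13 were lower in R213A 3 than in control 1 (median -0.46). In R213A 1, 10 were lower than in control 1 and 3 higher (median -0.35). Of all genes tested, 46%, 47.2% and 47.5% were higher in these comparisons. Between R213A 3 and R213A 1 the dividing cell genes were 6 higher and 6 lower, with a median of 0.04. That even split holds at the deposited scaling and with median of ratios, and 10 of 12 were higher with quantile scaling (median 0.24) and 8 of 12 with scaling to read totals (median 0.28). In control 2 against control 3, 13 of 13 mitochondrial transcripts were lower (median -0.90), where 53.2% of all genes tested were higher. The part of these differences in the results for the 10 genes was not tested.

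Across the 9 libraries, after taking out the mean of each table, 8 of the 9 genes above the filter correlated positively with each other, and ATF5 correlated negatively with all 8. Pearson correlations of log2(FPKM + 1) were 0.98 for SESN2 with DDIT4, 0.98 for CHAC1 with DDIT4, 0.97 for TRIB3 with SESN2 and 0.93 for TRIB3 with CHAC1. ATF4 was looser, at 0.75 with TRIB3 and 0.70 with CHAC1, and ATF5 ran from -0.29 with PPP1R15A to -0.60 with DDIT3. These values describe 9 libraries that share 1 line, and they carry no p. Wild type 1 and control 1, the pair behind the choice, lie at the ends for all of these genes but ATF5. The correlations, and the ranks of these genes below, therefore follow in part from the choice, and nothing is read from them. Of 9954 protein-coding genes tested, PCK2, the mitochondrial enzyme that makes phosphoenolpyruvate, followed the mean of TRIB3 and CHAC1 most closely (r = 0.997 over 9 libraries). It stood at 8.16, 3.45 and 3.86 FPKM in wild type libraries, at 1.35, 3.56 and 4.71 FPKM in R213A libraries and at 0.700, 3.05 and 3.71 FPKM in controls. PIP5KL1 (0.995), NFKBIA (0.989), FBLIM1 (0.989) and the peptide hormone gene ADM2 (0.987) came next. DDIT4 ranked 7th and SESN2 15th, while DDIT3 ranked 161st and ATF4 694th. Within the 5-library table alone the order was another one. PCK2 had a correlation of 0.99, PIP5KL1 0.98, FBLIM1 0.98, ADM2 0.95 and NFKBIA 0.57. DDIT4 had -0.32, DDIT3 -0.88, ATF4 -0.79 and ATF5 0.95. In that table TRIB3 spanned only 1.13-fold. CHAC1 stood at 11.9 FPKM in control 2 and at 19.0 to 21.7 FPKM in the other 4 libraries. These correlations therefore rest largely on 1 library, control 2.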

How the data were processed

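RNA was extracted with TRIzol and about 500 ng of total RNA per library entered the Illumina TruSeq stranded mRNA kit, per the labels' protocols. The genome build hg38 and bcl2fastq are named per the submitters' processing notes. The aligner, the counting program and the strand setting of its counts were not given in the sources used here. The authors deposited FPKM per gene in 2 tables. FPKM times the listed length gave whole reads, within 0.01 reads, for 99.9% of values in every library, and the deposited scaling departed from read totals by 0.850 to 1.09 times, for a reason not given. Positions of 58724 of the 58735 genes equal those of GENCODE 29, and current symbols were found for 58207 by Ensembl identifier.

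Since FPKM are not counts, log2(FPKM + 1) of the 11193 genes averaging 1 FPKM or more was fitted with limma 3.58.1 (R 4.3.3), with a mean-variance trend, group and table as terms, 5 residual degrees of freedom, two-sided tests and Benjamini-Hochberg adjustment over all genes at 0.05. A second fit took the 5-library table alone. The pseudocount of 1 understates changes of low genes. The procedure was tested on simulated data. Ratios of 2 libraries carry exact 95% binomial counting intervals. Alternatives changed the pseudocount, filter, scaling, trend, table term, replicate block and libraries, or used limma-voom on the recovered reads. The fit without wild type 1 and control 1 together was chosen after seeing the data. The closest libraries of a group, wild type 2 and 3, differed by more than sampling noise (chi-square per degree of freedom 4.70), so none was treated as a library deposited again. That does not show separate cultures: wild type 2 lay closer to R213A 2 (2.56) and to control 3 (2.79) than to wild type 3. The 10 genes and the other lists were chosen with earlier results of these data known. Genes named from the other lists are, in each list, those of largest absolute difference between wild type 1 and control 1 or of smallest p for R213A against control, 3 of each, and the 10 genes most correlated with the mean of TRIB3 and CHAC1.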

Additional observations from a re-analysis of the deposited data

How the results depend on the processing

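With 0 genes called in each of the 5 comparisons, changes of pseudocount, scaling, trend, table term and a filter of 5 FPKM left 0 calls, as did limma-voom on recovered reads (over 9 libraries, 425 genes at an unadjusted p under 0.05 for wild type and 214 for R213A, each against control, and 100 between them). Without the filter, wild type against control and R213A against control each gained 1 gene, the pseudogene MAT2AP1 with at most 0.383 FPKM, and the 5-library table gave 106 for wild type and 1103 for R213A against control. Leaving out each library in turn gave 0 calls over 9 libraries. In the 5-library table it gave 0 to 4570 for wild type and 0 to 3521 for R213A against control: 14 and 16 without control 2, and 4570 and 3521 without control 3, with 1 residual degree of freedom. The replicate block gave 0 calls in the 9-library comparisons (285, 632 and 125 at an unadjusted p under 0.05). Deviations of same-numbered libraries from their group means had correlations of -0.70 to 0.84. The deposited table was not taken out of these deviations. The negative values were those of R213A 3 with wild type 3 (-0.70) and with control 3 (-0.65), which lie in the other table. These correlations therefore cannot decide whether the numbers mark pairs, and the main fits did not treat them as pairs. For the 9 genes, R213A against control over 9 libraries had adjusted p values at or above 0.549 in every alternative, with 36 of 180 values of changed sign, while in the 5-library table alone 5 of them passed without control 3 (lowest adjusted p = 0.00264). Depth limits NUPR1, at 2 to 77 reads. Median 95% intervals over all genes reached 0.48 to 0.50 to either side on the log2 scale for the 9-library comparisons, and those of DDIT4, CHAC1 and TRIB3 were wider.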
